A study of Homo sapiens with 8 samples.

Results

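VHL re-expression was examined in normoxic cells of the line 786-O, a human clear cell renal cell carcinoma line that lacks functional VHL. Log2 signals of 2 arrays of 786-O cells stably transfected with VHL (VHL+) were set against those of 2 arrays of untransfected 786-O cells (VHL-), all cultured for 24 h under normoxia, and 4 further arrays held the same cells kept under hypoxia. Every transcript cluster (the probes of 1 locus) with 1 gene symbol in the array annotation was a member, which gave 19460 of the 33297 clusters and, taking the brightest cluster of each gene, 18417 genes. The study describes bulk cultures of stable transfectants and, for its qPCR, a vector backbone. The array labels give the VHL- cells as not transfected, so VHL and the transfection and selection cannot be told apart here. The labels call the 2 arrays of a group biological replicates and do not say how they were separated, so the p values measure the spread between these arrays. RNA was measured in bulk, where fewer cells that express a gene and less of its RNA per cell cannot be told apart.

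VHL is the substrate recognition part of a ubiquitin ligase, in which elongins B and C link it to a cullin. Prolyl hydroxylases use oxygen to mark the alpha subunits of the hypoxia-inducible factors (HIF), and VHL binds the marked subunits, which are then degraded. Cells without VHL keep HIF also in the presence of oxygen, and HIF with its partner ARNT raises the transcription of genes for vessel growth, glucose use, acid handling and matrix. In 786-O cells the alpha subunit known to be active is HIF2α, the product of EPAS1.

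In VHL+ cells under normoxia 584 of 18417 genes were higher and 626 lower than in VHL- cells (limma, adjusted p under 0.05, two-sided). These are 3.17% and 3.4% of the genes, the background for every list below, and 2.07% and 2.69% of all 33297 clusters. That background includes dim genes, which were seldom called. Among the 9911 genes with a mean normoxic signal of at least 7 (a minimum chosen after the values were seen), 5.36% were higher and 5.48% lower. For lists of mostly brighter genes the background is therefore higher than the shares of all genes. Of the genes that rose 129 did so by at least 2-fold, and 185 of those that fell, with medians of 0.77 and -0.77 on the log2 scale and no call smaller than 0.48. At least 4-fold rises numbered 11 and falls 40. In all 584 and all 626 genes the arrays of the 2 groups did not overlap, so non-overlap adds no support to a called gene. Changes lay mostly in genes with a clear signal: among 4605 genes with the dimmest signals 0.195% were called, and among the 4604 brightest 11.4%. Of the called genes 79 that rose were below the array median on both VHL- arrays, and 116 that fell were below it on both VHL+ arrays, so that their fold changes start or end near the floor of the arrays. CPT1A, IL18, RAB31 and TAGLN, described below, were among the 79. Without VHL+ hypoxia replicate 1 or 2, arrays that enter this comparison only through the estimate of the spread, 173 clusters were higher and 300 lower, in place of 690 and 897, and 172 and 299 of these were among the 690 and 897. In all, 133 of the higher and 203 of the lower genes passed in every fit with 1 array left out.

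**Figure D1:**
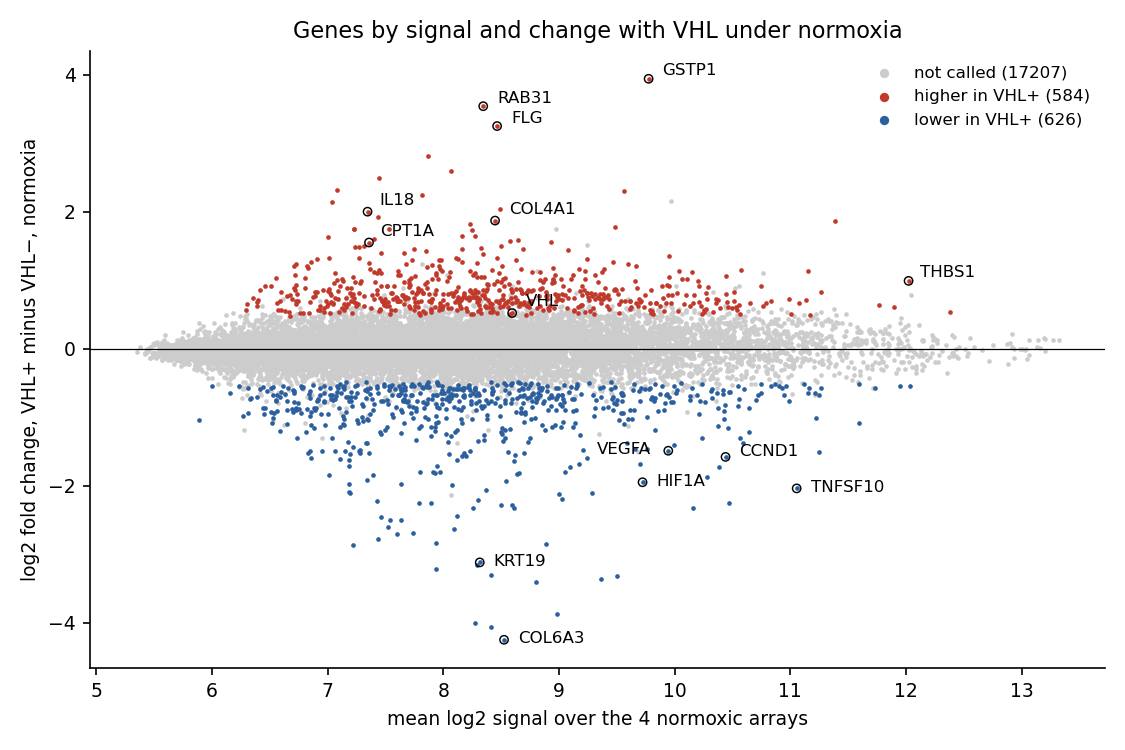
Mean log2 signal over the 4 normoxic arrays (horizontal) against the log2 fold change of VHL+ minus VHL- cells (vertical) for 18417 genes, with red for the 584 higher, blue for the 626 lower and grey for the other genes. The largest changes lie in the middle of the signal range, with GSTP1 at 3.94 and COL6A3 at -4.25, while VHL itself is at 0.52.

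VHL itself had log2 signals of 8.24 and 8.43 on the VHL- arrays and 8.85 and 8.86 on the VHL+ arrays, 1.43-fold higher (SE 0.14 on the log2 scale, adjusted p = 0.0398). The transfectants thus lay above the parental cells, by a small amount, and the call had an adjusted p of up to 0.436 with 1 array left out. In its Western blots the study found VHL protein in the transfectants only, and loss of HIF2α protein in them under normoxia. The arrays read RNA and do not measure that protein. Of the machinery that senses oxygen, VHL included, 1 of 16 measured genes rose and 4 fell. The components of the VHL ligase other than VHL did not pass: the log2 fold changes of ELOB and ELOC (elongins B and C), CUL2 and RBX1 were between 0.05 and 0.18. The falls were of HIF1A (-1.95), EPAS1 (-0.77), ARNT2 and EGLN3. EGLN3, a prolyl hydroxylase and itself a HIF target, had log2 signals of 8.38 and 8.30 in VHL- cells and 7.55 and 7.51 in VHL+ cells. It fell by 0.81 on the log2 scale (SE 0.15, limma adjusted p = 0.00290). ARNT2, a homologue of the HIF partner ARNT, had 7.27 and 8.03 in VHL- cells and 6.55 and 6.70 in VHL+ cells, a fall of 2.04-fold (SE 0.20 on the log2 scale, adjusted p = 0.00474). Its VHL- arrays differed by more than its VHL+ arrays. ARNT (0.11), EGLN1 (-0.19), the asparaginyl hydroxylase gene HIF1AN (-0.04) and the coactivator genes EP300 (0.15) and CREBBP (0.21) did not pass. With VHL+ hypoxia replicate 1 or 2 left out, HIF1A was the only one of the 5 to pass.

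HIF binds DNA at a short core, searched here as ACGTG or GCGTG on both strands in the 250 bases before the RefSeq start of each gene (14239 genes with such a promoter). NF-kB, a transcription factor known from inflammatory genes, was searched as GGNNTTTCC on both strands. The promoters below belong to ADM, DDIT4 and LOX, HIF targets that fell, and to CXCL1, CXCL8 and IL6, cytokine genes that fell. They are shown 5′ to 3′ on the strand of the gene (GRCh38.p14), with matches in capitals.
ADM promoter, chr11:10304823-10305072, plus strand: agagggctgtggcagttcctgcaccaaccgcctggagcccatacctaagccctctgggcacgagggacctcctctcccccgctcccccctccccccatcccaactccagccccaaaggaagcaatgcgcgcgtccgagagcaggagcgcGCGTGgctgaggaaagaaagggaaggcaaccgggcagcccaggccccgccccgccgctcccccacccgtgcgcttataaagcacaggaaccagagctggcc
DDIT4 promoter, chr10:72273674-72273923, plus strand: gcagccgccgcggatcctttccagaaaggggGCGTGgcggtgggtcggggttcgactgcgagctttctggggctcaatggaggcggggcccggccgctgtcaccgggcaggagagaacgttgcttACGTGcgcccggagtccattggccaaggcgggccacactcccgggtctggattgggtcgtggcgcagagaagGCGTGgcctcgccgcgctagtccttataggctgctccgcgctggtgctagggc
LOX promoter, chr5:122078260-122078509, minus strand: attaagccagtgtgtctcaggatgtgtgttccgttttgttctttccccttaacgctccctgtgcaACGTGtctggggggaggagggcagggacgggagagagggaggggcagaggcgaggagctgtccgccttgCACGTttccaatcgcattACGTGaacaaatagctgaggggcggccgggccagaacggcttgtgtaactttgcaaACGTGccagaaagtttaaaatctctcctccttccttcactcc
CXCL1 promoter, chr4:73869143-73869392, plus strand: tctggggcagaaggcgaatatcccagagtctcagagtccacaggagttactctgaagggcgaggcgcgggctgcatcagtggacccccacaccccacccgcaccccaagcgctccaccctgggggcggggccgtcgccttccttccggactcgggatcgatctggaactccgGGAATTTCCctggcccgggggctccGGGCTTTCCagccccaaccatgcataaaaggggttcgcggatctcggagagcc
CXCL8 promoter, chr4:73740319-73740568, plus strand: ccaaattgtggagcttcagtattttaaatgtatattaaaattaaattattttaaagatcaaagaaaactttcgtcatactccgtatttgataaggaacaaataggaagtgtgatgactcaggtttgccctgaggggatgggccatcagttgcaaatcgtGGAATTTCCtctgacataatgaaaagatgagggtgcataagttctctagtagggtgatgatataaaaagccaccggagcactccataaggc
IL6 promoter, chr7:22726950-22727199, plus strand: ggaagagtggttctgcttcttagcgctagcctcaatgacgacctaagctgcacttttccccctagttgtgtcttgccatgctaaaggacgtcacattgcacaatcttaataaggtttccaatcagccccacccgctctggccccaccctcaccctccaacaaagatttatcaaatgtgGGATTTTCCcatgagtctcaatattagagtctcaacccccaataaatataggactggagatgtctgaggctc
The LOX window held 4 matches of the HIF core, DDIT4 held 3 and ADM 1, and CXCL1 held 2 matches of the NF-kB letters where CXCL8 and IL6 had 1 each. The windows of P4HA2, EGLN3 and SLC2A1, which also fell, held 0 matches of the HIF core. The HIF core is common: 51.1% of all promoters had it, against 55.9% of those of the genes that rose and 54.5% of those that fell. Among the HIF targets with a promoter in the table, it was in 10 of 12 that fell and in 19 of 32 that were not called. The NF-kB letters were in 5.85% of all promoters, in 7 of 12 of the cytokine and NF-kB genes that fell and in 11 of 37 that were not called. A match is a description of these windows and does not show binding.

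Of 21 HIF targets that are growth factors, hormones, their receptors or regulators of vessel tone, 6 fell in VHL+ cells and none rose. STC1, the hormone stanniocalcin 1, had log2 signals of 8.67 and 8.39 in VHL- cells and 6.25 and 6.38 in VHL+ cells, 4.66-fold lower (log2 fold change -2.22, SE 0.15, adjusted p = 4.05e-08). Its VHL+ signals were below the array medians. ADM, adrenomedullin, a vasodilator peptide, had 9.30 and 9.56 in VHL- cells and 7.51 and 8.08 in VHL+ cells (3.12-fold lower). VEGFA, the main growth factor of vessels, had 10.95 and 10.43 in VHL- cells and 8.86 and 9.54 in VHL+ cells. The VEGF co-receptor gene NRP2 fell by 1.26 on the log2 scale (SE 0.17, adjusted p = 1.03e-04), STC2 by 1.01 and PDGFA by 0.61. EDN1 (-0.87), ANGPTL4 (-0.28), EPO (-0.17), FLT1 (-0.08) and KDR (-0.09) did not pass, and IGFBP1 had the highest value of the list (0.46). The list's median was -0.17, against -0.03 for all genes. ADM, NRP2 and STC1 passed in every fit with 1 array left out, while VEGFA had an adjusted p of up to 0.0501 and STC2 of up to 0.0597 without VHL+ hypoxia replicate 1 or 2. PDGFA was also lost without VHL+ normoxia replicate 1 or VHL- normoxia replicate 2, with an adjusted p of up to 0.221 over these fits.

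Of 12 enzymes that modify collagen, 4 fell and none rose. P4HA2, an alpha subunit of collagen prolyl 4-hydroxylase, had 10.85 and 10.52 in VHL- cells and 9.70 and 9.76 in VHL+ cells (log2 fold change -0.95, SE 0.15, adjusted p = 4.75e-04). The lysyl hydroxylase gene PLOD2 and the lysyl oxidase homologue LOXL2 both fell by 0.58 on the log2 scale. LOX, lysyl oxidase, had 9.66 and 8.24 in VHL- cells and 6.18 and 6.31 in VHL+ cells. Thus its VHL- arrays differed by more than 2-fold between themselves. The groups did not overlap, as in all 626 genes that fell. P4HA1 (-0.19), P4HB (-0.19), PLOD1 (-0.09) and PLOD3 (0.09) did not pass. P4HA2 was the only one of the 4 that passed without VHL+ hypoxia replicate 1 or 2.

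Among 24 HIF targets of stress responses, growth control and signalling, 10 fell and none rose, with a median of -0.38. NDRG1, a stress-responsive gene, had 10.48 and 10.30 in VHL- cells and 8.91 and 8.93 in VHL+ cells, a difference far above the replicate spread (log2 fold change -1.47, SE 0.14, adjusted p = 3.23e-06). DDIT4, an inhibitor of mTORC1, had 9.01 and 9.68 in VHL- cells and 6.73 and 7.07 in VHL+ cells. CCND1, cyclin D1, which drives entry into S phase, had 11.06 and 11.40 in VHL- cells and 9.31 and 9.99 in VHL+ cells. BNIP3L, a mitophagy receptor, fell by 0.73 and the transcription repressor gene BHLHE40 by 0.72. The lipid droplet gene PLIN2 and VLDLR, a lipoprotein receptor, both fell by 0.77, and ZNF395, a zinc finger gene, by 0.89. BNIP3 (-0.66), MXI1 (-0.15), KDM3A (-0.11) and ANKRD37 (-0.19), members of the same list, did not pass. Of these 10 genes, 5 passed without VHL+ hypoxia replicate 1 or 2.

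**Figure D2:**
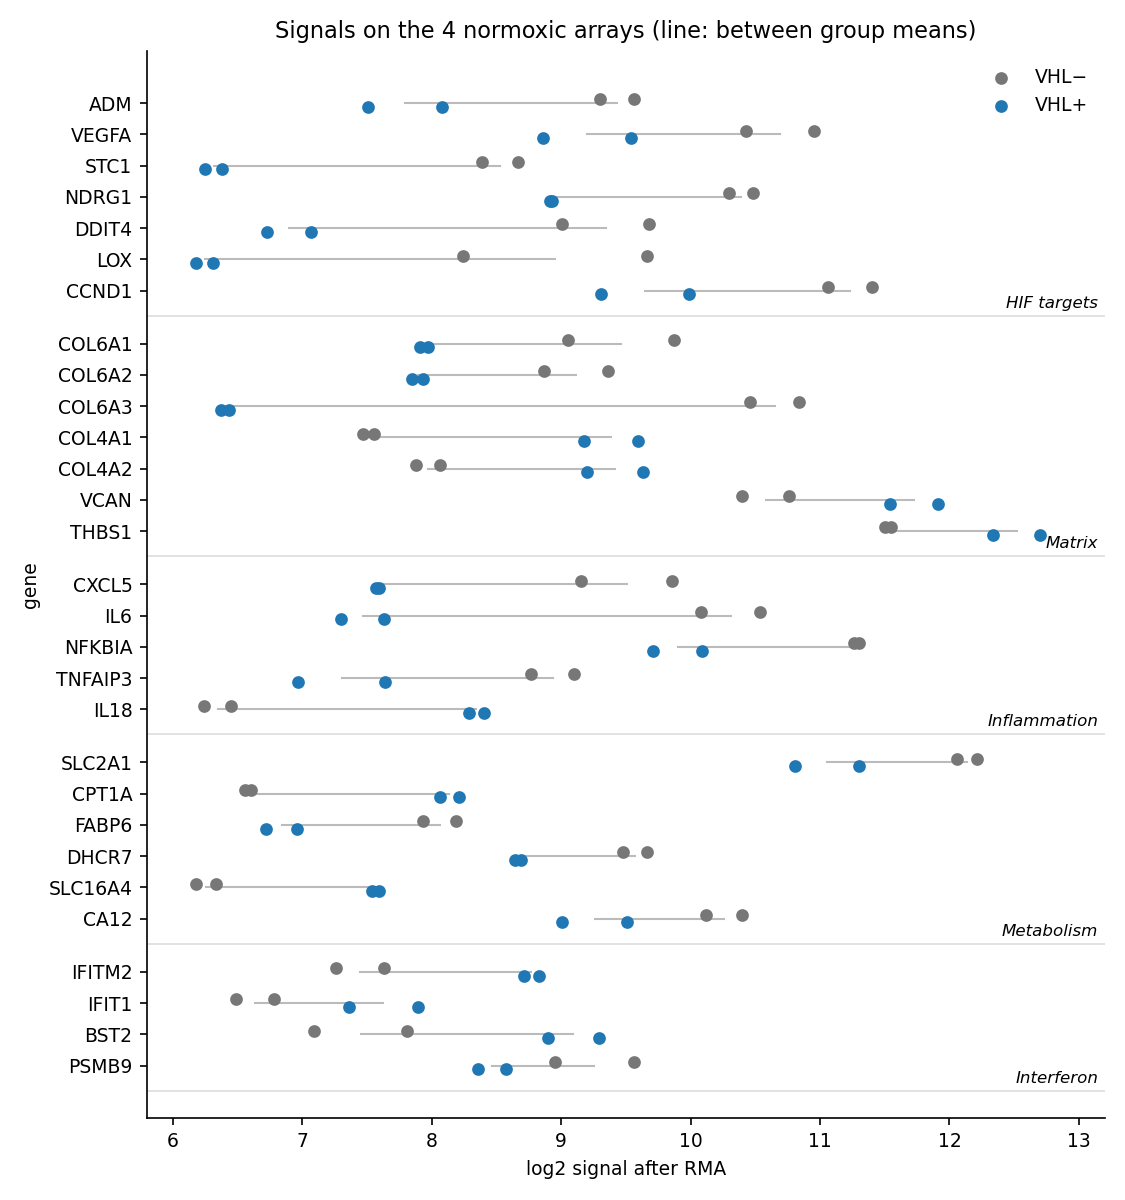
Log2 signals of 29 genes on each of the 4 normoxic arrays, grey for VHL- and blue for VHL+, with a line between the group means. STC1 lies at 8.67 and 8.39 in VHL- and at 6.25 and 6.38 in VHL+ cells, and for COL4A1 and COL4A2 the order of the groups is turned against that of COL6A1, COL6A2 and COL6A3.

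Under hypoxia the log2 fold changes of the HIF targets were less negative, in a contrast that was shifted upward as a whole. The median of all genes was -0.03 under normoxia and 0.18 under hypoxia, and 95.6% of all genes had a higher value under hypoxia. Over the 57 HIF targets of these 3 lists the median was -0.22 under normoxia and 0.07 under hypoxia, or -0.19 and -0.11 relative to the medians of all genes, and 7 of the 20 genes that fell under normoxia fell under hypoxia as well. All 20 had a hypoxic value above their normoxic one as deposited, and 17 did relative to the medians of all genes and after quantile normalization. NDRG1 went from -1.47 to -0.26, P4HA2 from -0.95 to -0.21, CCND1 from -1.58 to -0.54 and PLIN2 from -0.77 to 0.25. LOX and DDIT4 (both -2.37) and STC1 (-2.1) stayed low under hypoxia. None of these differences passed the test of the difference itself, in which adjusted p values ran from 0.0995 for NDRG1 to 0.902 for DDIT4. In that test 2 of 33297 clusters passed (0.00601%), both without a symbol, and 1869 had an unadjusted p under 0.05. Of all 18417 genes, 14.3% were higher and 1.72% lower with VHL under hypoxia. All 584 genes that rose under normoxia were above 0 under hypoxia and 574 passed there, where 86.7% of all genes were above 0. Of the 626 that fell, 607 were below 0 under hypoxia and 279 passed. Relative to the median of all genes under hypoxia, 584 and 619 kept their side.

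**Figure D3:**
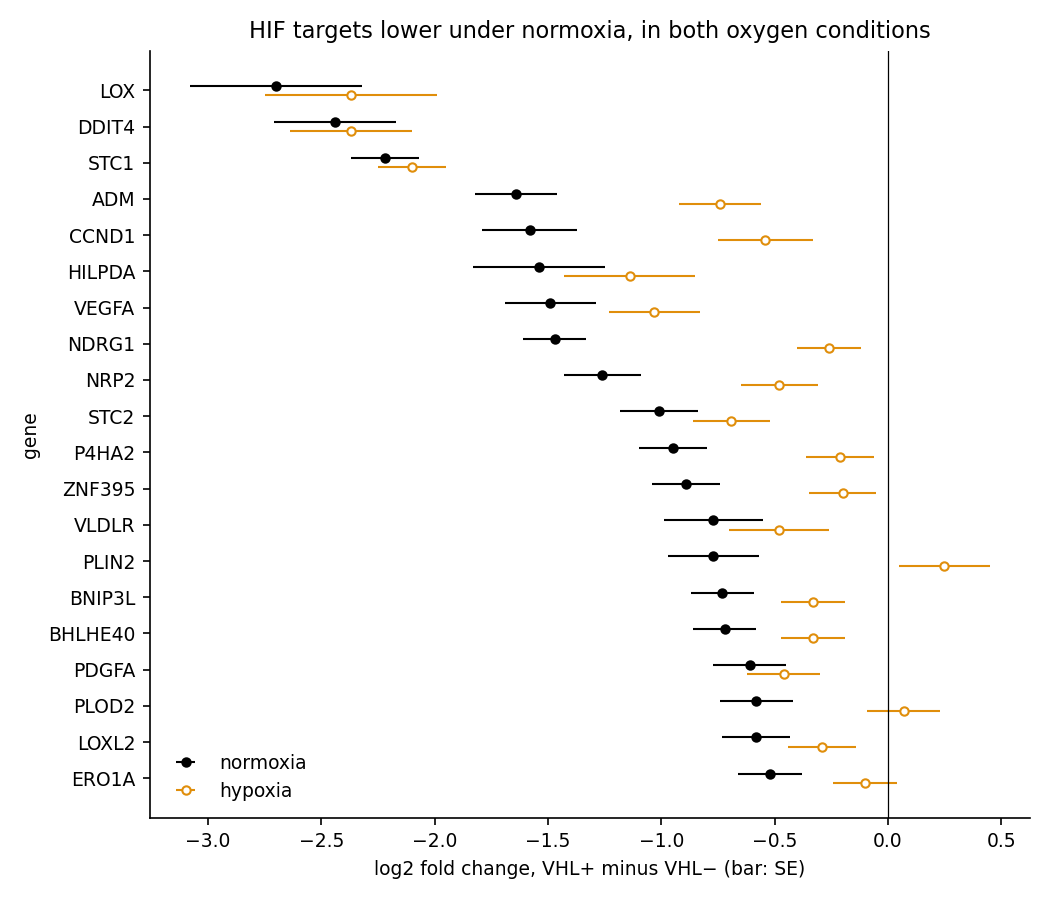
Log2 fold change of VHL+ minus VHL- cells (horizontal) for the 20 HIF targets that fell under normoxia, black for normoxia and open orange for hypoxia, with bars for the SE. Each orange point lies to the right of its black point, as for NDRG1 (-1.47 and -0.26), while LOX, DDIT4 and STC1 stay below -2 in both.

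The collagen chains were split by type. The 3 main chains of collagen VI, which forms microfibrils around cells, fell. COL6A1 had 9.87 and 9.05 in VHL- cells and 7.97 and 7.91 in VHL+ cells (log2 fold change -1.52), and COL6A2 had 9.36 and 8.87 against 7.93 and 7.85 (-1.22, SE 0.16, adjusted p = 8.44e-05). COL6A3 fell from 10.84 and 10.46 to 6.37 and 6.43. COL6A5 (-0.09) and COL6A6 (-0.13), dim on all 4 arrays, did not pass. The 2 common chains of collagen IV, the network of basement membranes, rose instead. COL4A1 had 7.47 and 7.55 in VHL- cells and 9.18 and 9.59 in VHL+ cells, 3.66-fold higher (log2 fold change 1.87, SE 0.16, adjusted p = 4.15e-07). COL4A2, its neighbour in the genome, had 7.88 and 8.06 against 9.20 and 9.63, 2.72-fold higher. Of the other chains COL12A1 rose by 1.01 and COL7A1, of the anchoring fibrils, fell by 0.84. Chains of the fibrils of connective tissue, such as COL1A1 (-0.10), COL3A1 (-0.06) and COL5A1 (-0.13), did not pass. In all 3 of 26 chains rose and 4 fell, and 2 of each remained without VHL+ hypoxia replicate 1 or 2.

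Of 37 basement membrane and matrix glycoproteins, 4 rose and 6 fell. The rises were of CCN2, THBS1, VCAN and LAMA5. CCN2 (connective tissue growth factor) had 7.99 and 8.31 in VHL- cells and 9.96 and 9.47 in VHL+ cells (2.95-fold), THBS1 (thrombospondin 1) rose by 0.99, VCAN (versican) by 1.14 and LAMA5 (a laminin α chain) by 0.80. LAMB3, a chain of epidermal laminin, had 9.63 and 9.16 in VHL- cells and 8.11 and 8.09 in VHL+ cells (log2 fold change -1.30), and its value under hypoxia was -0.14. The fibrillin gene FBN1 (-2.09), EFEMP1 (-1.02) and the proteoglycan gene SPOCK1 (-0.86) fell too, together with NID2 and SRPX. FN1 (0.12), SPARC (0.05) and LAMC1 (-0.01) did not pass. VCAN had an adjusted p of up to 0.0798 without VHL+ hypoxia replicate 1 or 2, where 3 of the 4 rises and 4 of the 6 falls passed.

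Of 33 proteases and inhibitors 6 fell and 1 rose. MMP2, gelatinase A, had 10.87 and 10.97 in VHL- cells and 7.13 and 6.97 in VHL+ cells, 14.6-fold lower, and ADAM12 fell by 2.33. MMP13, a collagenase, had 7.64 and 7.54 in VHL- cells and 6.17 and 6.03 in VHL+ cells (log2 fold change -1.49, SE 0.16, adjusted p = 8.50e-06). The aggrecanase gene ADAMTS5 (-1.37), the membrane-bound MMP14 (-0.99) and SERPINA1, an inhibitor of neutrophil elastase (-1.47), fell as well. CTSZ, a lysosomal cathepsin, rose by 0.80. MMP7, matrilysin, had a value of 2.16 that did not pass, and the plasminogen activator genes PLAU (-0.20) and PLAT (-0.17), PLAUR (-0.26) and TIMP1 (-0.18) did not either.

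Among adhesion molecules there were changes in both directions, 3 of 32 higher and 4 lower. ITGA6, an integrin that binds laminin, had 7.60 and 7.35 in VHL- cells and 8.53 and 9.04 in VHL+ cells (log2 fold change 1.31), and L1CAM rose by 1.48. ITGA2, an integrin that binds collagen, fell by 1.11, CDH11 by 1.92 and CDH2, N-cadherin, by 0.75, while CDH1, E-cadherin, had -0.07. Of the cytoskeletal genes, 3 of 32 rose and 3 fell. TAGLN, transgelin, which binds actin, had 6.49 and 6.45 in VHL- cells and 8.42 and 8.37 in VHL+ cells, and MYL9, a myosin light chain, rose by 1.77. KRT19 was 8.70-fold lower, with 9.86 and 9.89 in VHL- cells and 6.84 and 6.67 in VHL+ cells. KRT8 (-0.26), KRT18 (0.06), VIM (-0.12), ZEB1 (0.02) and TWIST1 (0.04) did not pass, and SNAI2, a repressor of epithelial genes, fell by 1.13. In the fits without VHL+ hypoxia replicate 1 or 2 the adhesion list had 2 higher and 1 lower and the cytoskeletal list 1 higher and 2 lower.

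Of 40 chemokines, cytokines and receptors, 8 fell and IL18 alone rose. CXCL5, which attracts neutrophils, had 9.15 and 9.86 in VHL- cells and 7.59 and 7.57 in VHL+ cells (3.80-fold lower), and IL6 had 10.54 and 10.08 against 7.63 and 7.30 (7.20-fold lower). CXCL2 fell by 0.78 and CSF1, the growth factor of macrophages, by 0.90. TNFSF10, the death ligand TRAIL, had 12.12 and 12.03 in VHL- cells and 9.96 and 10.11 in VHL+ cells, and TNFRSF11B, a decoy receptor of the same family, fell by 1.52. IL18 had 6.24 and 6.45 in VHL- cells and 8.29 and 8.40 in VHL+ cells, 3.99-fold higher. CCL2 had 10.75 and 7.53 in VHL- cells and 6.82 and 7.18 in VHL+ cells, and with that spread its log2 fold change of -2.14 did not pass (adjusted p = 0.125). IL1A (-0.03), IL1B (-0.01), CXCL10 (-0.04) and CXCL12 (-0.03) did not pass.

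Among 29 NF-kB subunits, feedback inhibitors and acute-phase genes, 9 fell and 1 rose, with a median of -0.44. Of the feedback inhibitors, NFKBIA and TNFAIP3 fell, and NFKBIB (0.05), NFKBIE (-0.20) and NFKBIZ (-0.13) did not pass. NFKBIA had 11.26 and 11.30 in VHL- cells and 9.71 and 10.09 in VHL+ cells (log2 fold change -1.38, SE 0.17, adjusted p = 4.24e-05), and TNFAIP3, a ubiquitin-editing enzyme, had 9.10 and 8.77 against 6.97 and 7.64 (-1.63). The subunits NFKB1 (-0.33), RELA (-0.46), RELB (-0.19) and REL (-0.02) did not pass. Of acute-phase and innate genes, PTX3 (-1.53), SAA1 (-1.33), the mitochondrial dismutase gene SOD2 (-1.31), the complement protease gene C1R (-1.03) and PTGS2 (-0.96) fell, and CFI, a complement inhibitor, rose by 1.74. NFKBIA (-0.25), TNFAIP3 (-0.48) and SAA1 (-0.35) did not pass under hypoxia, with adjusted p values of the difference from 0.306 to 0.341. The fits without VHL+ hypoxia replicate 1 or 2 kept 6 of the 9 falls, and 6 of the 8 of the cytokine list.

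**Figure D4:**
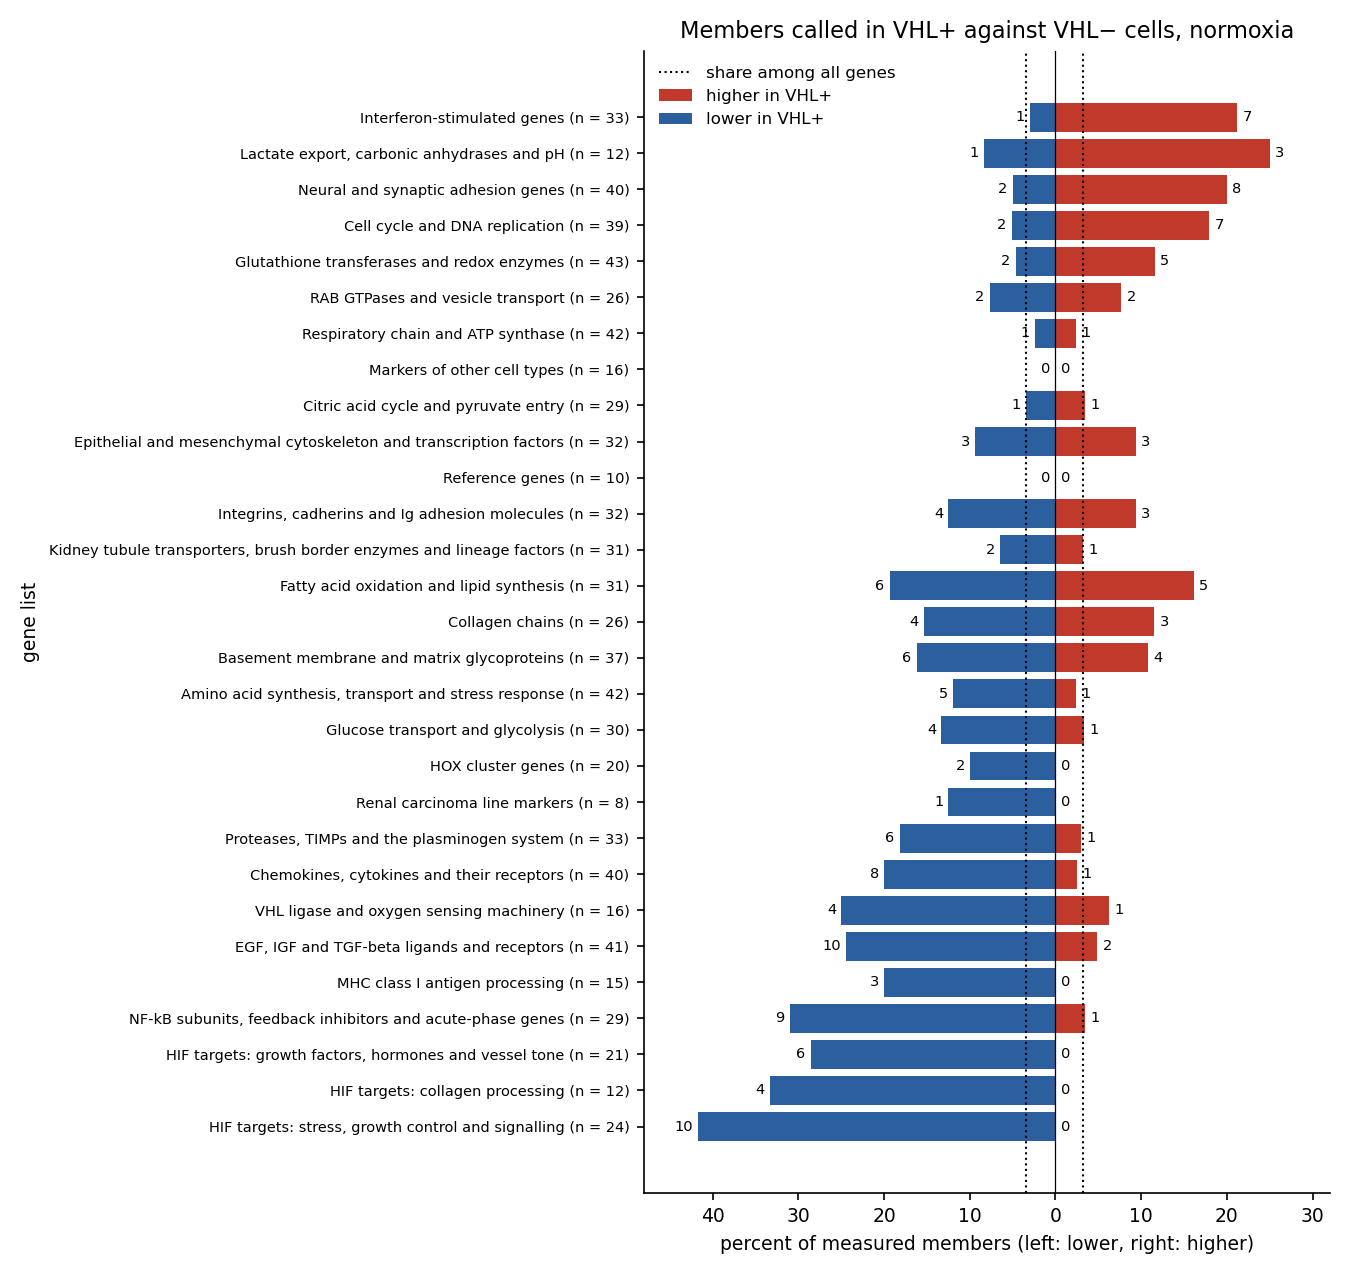
Percent of measured members of 29 gene lists that were higher (red, right) or lower (blue, left) in VHL+ cells under normoxia, with the number of genes at each bar and dotted lines for all genes (3.17% and 3.4%). The HIF target lists stand at the bottom with falls alone (4, 6 and 10 genes), and interferon-stimulated genes at the top with 7 higher and 1 lower.

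Glycolysis changed at a few steps. Of 30 genes 4 fell and 1 rose, with a median of -0.13. SLC2A1, the glucose transporter GLUT1, had 12.21 and 12.06 in VHL- cells and 10.81 and 11.30 in VHL+ cells, 2.11-fold lower, and HK2, the hexokinase of the first step, had 8.94 and 8.53 against 7.70 and 7.97. The glycogen phosphorylase gene PYGL fell by 0.91 and PGM1, of the same pathway, by 0.55. PDK2, a kinase that inhibits pyruvate dehydrogenase, rose by 0.96. The enzymes from aldolase to lactate did not pass, with ALDOA at 0.17, GAPDH at -0.03, PGK1 at -0.24, PKM at -0.11 and LDHA at -0.10, and neither did PDK1 (-0.17), ENO2 (-0.91) or PFKFB4 (-0.73). For acid handling, CA12, a carbonic anhydrase of the cell surface, had 10.40 and 10.12 in VHL- cells and 9.01 and 9.51 in VHL+ cells and fell, whereas CA13 (1.07) and the monocarboxylate transporter genes SLC16A4 (1.31) and SLC16A7 (1.74) rose. SLC16A4 had 6.33 and 6.18 in VHL- cells and 7.59 and 7.54 in VHL+ cells, 2.48-fold higher. Without VHL+ hypoxia replicate 1 or 2, SLC2A1, HK2, CA13 and SLC16A4 passed and CA12 had an adjusted p of up to 0.0829.

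Mitochondrial energy genes were close to the background. Of 29 citric acid cycle genes IDH3G rose (0.62) and ACO1 fell (-0.55), and of 42 respiratory chain genes NDUFS1 rose (0.55) and UQCRC1 fell (-0.53). SDHA had 0.02, CS 0.11 and COX4I1 0.05. None of these 4 calls stayed in every fit with 1 array left out.

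Of 31 lipid genes 5 rose and 6 fell. CPT1A, which carries long-chain fatty acids into mitochondria, had 6.60 and 6.56 in VHL- cells and 8.06 and 8.21 in VHL+ cells, 2.94-fold higher (log2 fold change 1.55, SE 0.13, adjusted p = 5.65e-07). ECHS1 (0.80), the coactivator gene PPARGC1A (0.80), ACSL1 (0.76) and ACADM (0.66), all of fatty acid oxidation, rose as well, and ACAA2 (-0.56), a thiolase of the same pathway, fell. Genes of synthesis fell: DHCR7, of the last step to cholesterol, had 9.48 and 9.66 in VHL- cells and 8.69 and 8.64 in VHL+ cells, SCD fell by 0.90, ACACA by 0.60 and ACLY by 0.54. FASN (0.06), SREBF1 (0.37), HMGCS1 (-0.54) and SQLE (-0.69) did not pass. FABP6, a bile acid binding protein, fell by 1.22. CPT1A, DHCR7, FABP6 and SCD passed without VHL+ hypoxia replicate 1 or 2, and no other of the 11 did. LIPG, endothelial lipase, had 10.42 and 7.74 in VHL- cells and 6.30 and 6.48 in VHL+ cells, so that its log2 fold change of -2.69 rested on VHL- arrays that were far apart (adjusted p = 0.0237, and up to 0.343 without VHL+ hypoxia replicate 1 or 2).

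Of 43 genes of glutathione and redox metabolism 5 rose and 2 fell. GSTP1 had the largest rise of all genes (3.94), while GSTM3, a glutathione transferase of another class, had 7.96 and 8.13 in VHL- cells and 6.36 and 6.29 in VHL+ cells and fell by 1.72. GSTT1 (0.81), GPX3 (0.68), MGST2 (0.61) and PRDX3 (0.49) rose. The NRF2 targets NQO1 (0.12), HMOX1 (-0.07), GCLM (0.21) and TXNRD1 (-0.51) did not pass. Of 42 amino acid genes 5 fell and SHMT1 rose (0.87). TRIB3, a pseudokinase of the stress response, fell by 1.25, the taurine transporter gene SLC6A6 by 0.63 and ASS1, of arginine synthesis, by 0.60, while ATF4 (0.03), PHGDH (-0.04) and SLC7A5 (0.89) did not pass. Without VHL+ hypoxia replicate 1 or 2, the redox list had 2 higher and 1 lower and the amino acid list 1 lower, SLC38A5.

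Interferon-stimulated genes rose in 7 of 33 cases and fell in 1, with a median of 0.19. The IFITM genes, which restrict virus entry, rose together: IFITM2 had 7.26 and 7.63 in VHL- cells and 8.71 and 8.83 in VHL+ cells (log2 fold change 1.32, SE 0.15, adjusted p = 2.04e-05), IFITM3 rose by 0.99 and IFITM1 by 0.92. BST2, tetherin, had 7.81 and 7.09 against 8.90 and 9.29 (3.12-fold), IFIT1 rose by 0.99, IFI27 by 0.98 and XAF1 by 0.77. Other members of the response, such as MX1 (-0.13), OAS1 (0.02), ISG15 (0.15) and IRF7 (-0.01), did not pass, and IFI35 fell by 0.67. The genes that prepare peptides for MHC class I did not follow: 3 of 15 fell and none rose. PSMB9, a subunit of the immunoproteasome, had 9.56 and 8.95 in VHL- cells and 8.36 and 8.57 in VHL+ cells, and the proteasome activator genes PSME1 (-0.75) and PSME2 (-0.58) fell, while TAP1 (-0.36) and B2M (0.21) did not pass. IFITM2 and IFI27 passed without VHL+ hypoxia replicate 1 or 2, and no other of these 11 genes did.

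Growth factor genes went mainly down, 10 of 41 lower and 2 higher. Epiregulin (EREG), which binds the EGF receptor, had 11.58 and 11.61 in VHL- cells and 8.64 and 10.05 in VHL+ cells, so that its VHL+ arrays were apart but both below VHL-. HBEGF, another ligand of that receptor, rose by 1.02. In the TGF-β family TGFB1 (-0.58), the receptor TGFBR2 (-0.70), the latent binding proteins LTBP1 (-0.59) and LTBP3 (-0.93) and BMP2 (-0.71) fell, and BMPR1B rose by 0.91. The insulin receptor substrates IRS1 (-0.67) and IRS2 (-0.69) and MET (-0.65) fell as well, and EGFR (-0.14), IGF1R (-0.34) and AXL (0.06) did not pass. In the fits without VHL+ hypoxia replicate 1 or 2, 3 of the 10 falls and 1 of the 2 rises passed.

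Cell cycle genes rose in 7 of 39 cases and fell in 2. The rises were of 6 mitotic genes, with CDK1 at 9.23 and 9.24 in VHL- cells and 9.82 and 10.42 in VHL+ cells (log2 fold change 0.88), BUB1 at 0.91, AURKA at 0.78, CCNB1 at 0.73, AURKB at 0.65 and PLK1 at 0.64, and of RB1, the retinoblastoma gene, at 1.02. The 2 falls were of CCND1 and the replication licensing gene CDC6 (-0.86), while MCM2 (-0.06), PCNA (-0.34) and CDKN1A (-0.03) did not pass. Other mitotic members did not pass either, with BUB1B at 0.16, CDC20 at 0.23, CCNB2 at 0.42 and CCNA2 at 0.38. In the 6 that rose VHL+ replicate 2 was higher than replicate 1. RB1 and CCND1 passed without VHL+ hypoxia replicate 1 or 2, and no other of the 9 did.

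Of 40 neural and synaptic adhesion genes 8 rose and 2 fell. MDGA2 had 5.94 and 5.91 in VHL- cells and 7.99 and 8.48 in VHL+ cells, and NRXN3, a neurexin, had 6.45 and 6.69 against 7.74 and 8.39 (2.82-fold). NLGN1, a neuroligin, rose by 2.14, with VHL+ arrays apart (7.44 and 8.77), and SLIT2, a guidance cue, by 1.63. PLXDC2 rose by 2.81. All 5 had VHL- signals below 7, near the floor of the arrays. Of 31 kidney genes 1 rose and 2 fell, shares near those of all genes. ENPEP rose by 2.30, ANPEP fell by 3.22 and MME by 0.94, all of them membrane peptidases, and MME had an adjusted p of up to 0.33 with 1 array left out. Of 20 HOX genes 2 fell, HOXD10 by 1.73 and its neighbour HOXD11 by 0.61, the latter with an adjusted p of up to 0.127 with 1 array left out. Of 26 genes of vesicle transport 2 rose and 2 fell. RAB31, a small GTPase, had 6.65 and 6.50 in VHL- cells and 9.99 and 10.24 in VHL+ cells, 11.7-fold higher. Its VHL- signals were below the array medians. RAB3B rose by 1.47, SNAP25, of vesicle fusion, fell by 1.18 and RAB27B by 0.70. RAB31 and SNAP25 passed in every fit with 1 array left out, and RAB3B and RAB27B did not. Without VHL+ hypoxia replicate 1 or 2, 4 of the 8 neural rises and neither of the 2 falls passed.

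Of the largest changes outside the lists, FLG, filaggrin, rose by 3.25 and NIPAL2 by 2.59. DNAJC15, a co-chaperone of mitochondrial protein import, had 8.93 and 8.37 in VHL- cells and 5.78 and 5.79 in VHL+ cells (7.28-fold lower). G0S2, an inhibitor of triglyceride lipase, fell by 2.33, SERPINB9, an inhibitor of granzyme B, by 2.50, SLFN11 by 2.28 and the G protein subunit gene GNG4 by 2.50. DOK4, a docking protein, had 7.46 and 7.19 in VHL- cells and 8.97 and 9.32 in VHL+ cells, and CDK14, a cyclin-dependent kinase, rose by 1.75.

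The labelled cell type was checked on its markers, of which CDH2 alone of 8 was called. PAX8, a renal lineage factor, had 10.71 and 10.40 in VHL- cells and 10.48 and 10.45 in VHL+ cells, and VIM between 12.29 and 12.45 on all 4 arrays. Of 16 markers of other cell types none was called and 13 were below the median on all 4 arrays. Of 10 reference genes none was called, and HPRT1 had the value farthest from 0 (-0.51, adjusted p = 0.0687).

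Among short non-coding RNAs the gene MIR21 stood out (chosen, like VMP1 and SNORD116, after its values were seen). Of 173 miRNA genes it was the only one called. MIR21 had 10.22 and 10.03 in VHL- cells and 7.78 and 8.07 in VHL+ cells, 4.58-fold lower (log2 fold change -2.20, SE 0.15, adjusted p = 4.82e-08), and under hypoxia it had -2.06. The probes read transcripts of the locus and not the mature miRNA, whose sequence (RefSeq, GRCh38.p14) is shown with its seed, bases 2 to 8, in capitals.
hsa-miR-21-5p: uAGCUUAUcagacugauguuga
VMP1, the gene next to it and partly shared with its primary transcript, had 11.47 and 11.30 in VHL- cells and 10.83 and 10.89 in VHL+ cells and fell by 0.52 (adjusted p = 0.0295, and up to 0.416 with 1 array left out). Of 20 small nucleolar RNA genes of the SNORD116 cluster, near copies of each other whose probes may not tell them apart, 4 fell and 19 had a negative value. SNORD116-21 had the largest fall, with 7.64 and 8.19 in VHL- cells and 6.34 and 6.26 in VHL+ cells (log2 fold change -1.61). Of 175 small nucleolar RNA genes 3 rose and 8 fell, and of 634 long non-coding genes 5 rose and 3 fell.

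The called genes were unevenly spread over the chromosomes. Chromosome 13 holds 1.72% of the measured genes and held 16.1% of those that rose: 94 of its 317 genes rose (29.7%) and 3 fell, against 2.71% that rose elsewhere. To look at neighbouring genes, those with a mean normoxic signal of at least 7 were put in the order of their RefSeq positions (9911 genes, a minimum chosen after the values were seen). Of the 162 such genes of chromosome 13, 88.3% had a positive log2 fold change, with a median of 0.63 (quartiles 0.36 and 0.84) where all 9911 had a median of 0.02, and 92 rose. In blocks of 20 neighbours, the 8 blocks of chromosome 13 had medians from 0.55 to 0.70, and the 479 other blocks of the genome medians from -0.62 to 0.54. The median over these genes, taken relative to all genes and to the mean of the 8 arrays, was -0.28 and -0.32 on the VHL- arrays and 0.23 and 0.34 on the VHL+ arrays under normoxia, and -0.27, -0.28, 0.31 and 0.29 under hypoxia. All 4 VHL+ arrays thus lay above all 4 VHL- arrays. COL4A1, COL4A2 and RB1 are among them, as are, chosen after their values were seen, BORA and CKAP2 of the mitotic spindle (1.43 and 1.35), the actin nucleator gene DIAPH3 (1.33), the exporter gene ABCC4 (1.31), the lipid phosphatase gene MTMR6 (1.30) and POLR1D of RNA polymerases (1.18). BORA had 7.10 and 7.17 in VHL- cells and 8.22 and 8.91 in VHL+ cells. The 3 falls on chromosome 13 were of DNAJC15, IRS2 and the connexin gene GJB2 (-1.36).

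Other stretches went down (their borders, and the genes SLFN5 and TMEM98, were chosen after the values were seen). On chromosome 17, the 220 genes from WSB1 to SLC35B1 had a median of -0.39, with 65 lower and 1 higher, while the 161 genes from RPH3AL to UBBP4, just before them, had 0.18, with 11 higher and none lower. KRT19, SLFN11, SLFN5, TMEM98 (-1.80), CDC6, ACACA, ACLY, IFI35 and IGFBP4 lie in the first of these stretches. On chromosome 18 the 102 genes from ABHD3 to ADNP2 had a median of -0.36, with 24 lower and 2 higher, and the 40 from USP14 to SNRPD1 had 0.14. The 40 genes from TTC5 to IRF9 on chromosome 14, which include PSME1 and PSME2, had -0.46, with 14 lower, and the 40 from FAM20C to PMS2 on chromosome 7 had -0.36, with 15 lower. On chromosome 2 the 394 genes from MRPL35 to GAL3ST2 had a median of 0.28, with 60 higher and 14 lower. After quantile normalization these medians were -0.38, 0.18, -0.35, 0.13, -0.46, -0.38 and 0.28, and that of chromosome 13 was 0.65. The part of position in the changes of the genes named here, and the part of a difference between the cultures other than VHL, was not tested.

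**Figure D5:**
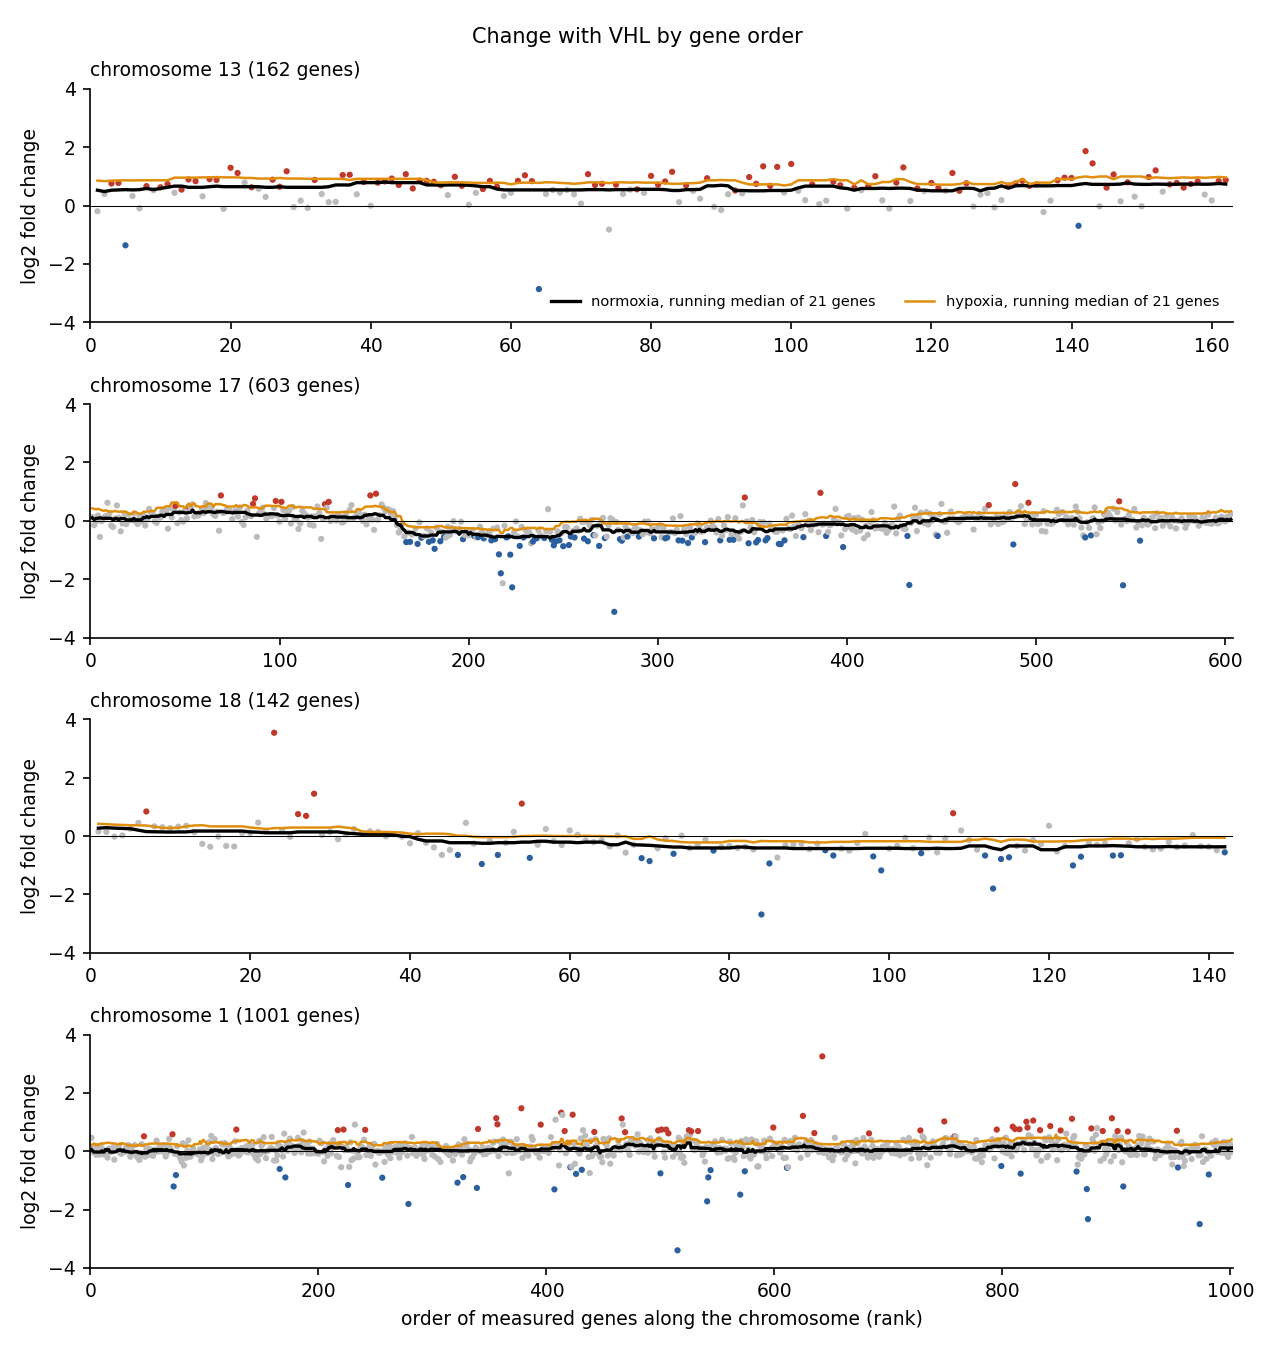
Log2 fold change of VHL+ minus VHL- cells (vertical) by rank along chromosomes 13, 17, 18 and 1 (horizontal), for genes with a mean normoxic signal of at least 7, with points for normoxia (red higher, blue lower, grey not called), a black running median of 21 genes for normoxia and an orange one for hypoxia. On chromosome 13 the black line stays near its overall median of 0.63, on chromosome 17 it drops to about the median of -0.39 between WSB1 and SLC35B1 and returns toward 0 after it, and on chromosome 1, shown for comparison, it stays near 0.06.

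Replicates of the groups were close for most genes, with a median difference of 0.10 between the VHL- arrays and 0.14 between the VHL+ arrays. Of the genes that differed by more than 1 on the log2 scale between replicates, 82 did so in VHL- cells and 44 in VHL+ cells, and 19 and 16 of them were called. LOX, LIPG, SRPX (9.94 and 8.78), CDH11 (9.11 and 7.49) and SEMA7A (10.36 and 8.92) were higher on VHL- replicate 1 than on replicate 2, CP (9.27 and 10.48) was lower on it, and VCAM1 (6.36 and 7.83), EREG and CRYAB (8.06 and 9.30) were lower on VHL+ replicate 1 than on replicate 2.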

How the data were processed

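RNA from 786-O cells with and without VHL, cultured for 24 h in normoxia or hypoxia, had been read on Affymetrix Human Gene 1.0 ST arrays, 2 for each of 4 groups. The values the authors deposited are on the log2 scale, 1 signal for each transcript cluster, after Robust Multichip Average (RMA) normalization, which per the labels and the methods the authors ran in Partek Genomic Suite. The versions and the genome build of the array annotation are not given in the sources used here. The array medians lay between 6.60 and 6.91, and precision is limited by how few arrays there were.

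All 33297 clusters were fitted with limma 3.58.1 in R 4.3.3, with 1 mean per group over all 8 arrays (4 residual and 14.0 prior degrees of freedom). The contrasts were VHL+ minus VHL- under normoxia, the same under hypoxia, and their difference, with p values adjusted by Benjamini and Hochberg over all clusters and a threshold of 0.05. A gene is represented by its brightest cluster with 1 symbol. Of 19460 such clusters, 19429 were matched to RefSeq (GRCh38.p14), which gave the current symbol. RefSeq also gave gene order, promoters and the miRNA. The 1754 clusters with several symbols and 12083 with none were tested but not named, so that list members without a cluster of 1 symbol, such as CA9, SLC16A3 and the HLA class I genes, were not analysed here. Named genes were taken from the 30 largest rises and falls, the oxygen sensing list, up to 6 called members of each of 29 lists in each direction (or the 2 with the smallest p), members that show how a list was split, and genes said to be chosen after their values were seen. Members, lists and rule were chosen with earlier results of these data known. Alternatives were other normalizations, estimates of the spread, filters and thresholds, and the methods' one-way test, run on the normoxic arrays alone. Further ones were the replicate number as a block, limma on the normoxic arrays alone, and each array left out in turn.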

Additional observations from a re-analysis of the deposited data

Results flagged for a closer look

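The test of the difference between the VHL effects of the oxygen conditions (limma) picked out 2 transcript clusters, which have no symbol in the array annotation used here. For transcript cluster 7892639 the normoxic log2 signals were 11.34 and 11.43 without VHL and 10.40 and 10.20 with VHL. Its hypoxic signals were 9.76 and 9.68 without VHL and 11.14 and 10.46 with VHL. The effect was -1.08 under normoxia and 1.08 under hypoxia, a difference of 2.16 (SE 0.25, adjusted p = 0.00117). For transcript cluster 7895995 the normoxic signals were 7.94 and 8.04 without VHL and 7.08 and 7.10 with VHL, and the hypoxic ones 6.44 and 6.39 without VHL and 7.89 and 7.33 with VHL. Its effects were -0.91 and 1.19, a difference of 2.10 (SE 0.23, adjusted p = 9.85e-04).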

How the results depend on the processing

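The counts of clusters that passed depended on the fit. Of the up to 194 genes that an alternative covered, none that was called in the main fit or in the alternative changed direction. Changes of sign in genes called in neither were not counted. As the mean over its clusters, the value of SAA2 was -2.38 in place of -3.31. In place of 690 higher, 897 lower and 2 with a different VHL effect in the oxygen conditions, the 4 normoxic arrays alone gave 72 higher and 178 lower, of which 71 and 177 were among the main calls. A 2-fold minimum gave 141 and 227, leaving out dim clusters 449, 589 and 0, and clusters with 1 symbol only 0 for the difference. Median centring gave 556 lower and 0 for the difference, and raised the share of higher calls from 43.5% to 55.3%. Quantile normalization gave 0 for the difference, and with the normoxic arrays alone (added after the values had been seen) 268 and 376. The methods' one-way test was run here on the 4 normoxic arrays alone, which need not be how the authors set it up. It gave 88 and 200 at an unadjusted p under 0.005 (share of higher calls 30.6%) and 0 and 1 adjusted. The paper reports more genes in both directions for this comparison at that threshold. Limma unadjusted gave 183 for the difference. Trend and robust estimation gave 89 for the difference. With 1 array left out, 173 to 1392 clusters were higher, 300 to 1365 lower, and 0 to 203 had a different effect. The lowest counts came without VHL+ hypoxia replicate 1 or 2 (173 and 300), while 1186 and 1365 came without VHL- hypoxia replicate 1 or 2, 1392 and 618 without VHL+ normoxia replicate 1, and 383 and 1192 without VHL+ normoxia replicate 2. The share of higher calls was 28.8% in the normoxic arrays alone, and 69.3% and 24.3% without VHL+ normoxia replicate 1 and 2. With the replicate block, 1170 were higher, 1348 lower and 98 differed. Deviations of same-numbered arrays correlated at 0.0503 to 0.605 over the 6 pairs of groups, 2 of them under 0.1. The highest values were within a cell line, 0.605 between the VHL- groups and 0.305 between the VHL+ groups. The normoxic pair was lowest, so the numbers were not taken to pair the VHL- and VHL+ arrays compared here. The main fit counts the normoxic and hypoxic arrays of a line as independent, also where they share a deviation. Leaving out either replicate of a hypoxic group gives the same normoxic comparison, since the array that remains in that group adds nothing to the estimate of the spread. Agreement between such fits was therefore fixed in advance. The causes of these changes in the counts were not tested.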
